A study of Mus musculus with 9 samples.

Results

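The piRNA pathway genes described here are 10 genes whose products make or hold PIWI-interacting RNAs in male germ cells: Piwil1, Piwil2, Mov10l1, Ddx4, Pld6, Asz1, Tdrkh, Tdrd1, Tdrd6 and Mael. They were chosen by gene symbol and not by a measured value, and each had 1 entry among the 38685 genes and loci of the table. Polyadenylated RNA from whole testis of C57BL/6 males was sequenced from the 3′ end (QuantSeq) in 3 groups of 3 libraries, namely wild-type (Prm2+/+), Prm2-heterozygous (Prm2+/-) and Prm2-deficient (Prm2-/-). Prm2 encodes protamine-2, one of the small proteins that take the place of histones in the sperm nucleus, and the mutant lines were made by CRISPR/Cas9 editing of oocytes. The tunica albuginea was removed before RNA extraction, and the age of the males is not given in the sources used here. The comparison asks whether loss of Prm2, or of 1 Prm2 allele, went along with a different level of these transcripts in the testis.

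PIWI-interacting RNAs (piRNAs) are short RNAs that guide PIWI proteins to transposon and other transcripts in germ cells. Long single-stranded precursors are unwound by helicases, cut at the surface of mitochondria, loaded into PIWI proteins and trimmed, while Tudor-domain proteins gather these steps in germ granules such as the intermitochondrial cement and the chromatoid body. In the mouse testis a large wave of piRNAs is made in pachytene spermatocytes under the transcription factor A-MYB (Mybl1), and loss of most of the genes named here arrests spermatogenesis. In bulk testis RNA, fewer germ cells of a stage and less RNA per cell cannot be told apart.

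None of the 10 genes was called differentially expressed between any pair of genotypes, where at most 0.181% of all tested genes were called. Piwil1, Piwil2, Ddx4 and Pld6 had nearly the same level in all 9 libraries, with 95% intervals of the log2 fold change (LFC) inside 0.5 in either direction in each comparison. Mael lay at either of a pair of levels far apart, high in all 3 Prm2+/+ libraries and low in 2 of 3 libraries of each mutant genotype. Tdrd1, Mov10l1 and Asz1 varied mainly through replicate 2 or 3 of Prm2+/+ or both, and Tdrkh and Tdrd6 through replicate 3 of Prm2+/+ and replicate 2 of Prm2-/-.

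Each library held 3629929 to 4490411 recovered counts. Prm2 itself had between 29716 and 42766 normalized counts in the 9 libraries, with an LFC of 0.20 between Prm2-/- and Prm2+/+ (adjusted p = 0.746, limma), so that its 3′ count does not check the labels. Replicate 3 of Prm2+/+ stood apart from the other libraries. In it, 1025 of the 14893 tested genes lay at least 2-fold below all other libraries, against 64 to 128 genes for each of the others, and its median Pearson correlation with the other libraries was 0.835 against 0.892 to 0.899. It held the lowest value of 5 of the 10 members and the highest value of 1. Of 45 measured marker genes for 10 cell types, 38 were tested and 0 were called in any comparison, beside at most 0.181% of all tested genes. The summed level of 5 spermatocyte markers was 3892 in replicate 3 of Prm2+/+ and 4269 to 5218 elsewhere. Round spermatid markers were also lowest in that library, with a sum of 2357. Sertoli cell and spermatogonial markers were instead highest there, with sums of 2920 and 329. The summed level of 4 epididymal markers was at most 12.4, with Lcn5 and Lcn8 at 0 throughout. The summed level of 4 peritubular markers was 293 to 325 in Prm2+/+, 254 to 277 in Prm2+/- and 226 to 271 in Prm2-/-, and the part of these shifts in the results was not tested.

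Levels between genes were set side by side per kilobase of annotated exon. Reads from 3′ ends need not scale with exon length, so this order is a rough one and depends on the division by length. In Prm2+/+, Mael stood first with 2567 ± 182 normalized counts per kb (SD, n = 3), followed by Piwil1 with 631 ± 19.4 and Ddx4 with 393 ± 54.3. Tdrd6 had 204 ± 32.8 per kb and Pld6 200.1 ± 5.25, and their libraries overlapped. Piwil2 followed with 71.0 ± 1.42 per kb. The remaining 4 genes were lowest, namely Tdrd1 with 37.1 ± 49.1, Asz1 with 16.1 ± 9.44, Mov10l1 with 15.6 ± 15.6 and Tdrkh with 9.79 ± 3.86 per kb. Each of the last 5 genes overlapped its neighbour in this order, while the steps from Mael down to Tdrd6 and from Pld6 to Piwil2 exceeded the spread of the libraries. Without that division Tdrd6 (mean 1442 normalized counts in Prm2+/+) stood above Ddx4 (1183), Piwil2 (375) above Pld6 (352), and Asz1 (45.5) was lowest in place of Tdrkh (60.1). Per kb, in both mutant genotypes Mael no longer stood clear of Piwil1, and Tdrd1 had the lowest mean with 10.2 ± 2.75 per kb in Prm2+/- and 10.0 ± 0.705 in Prm2-/-.

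The sequences upstream of 3 members are shown because these genes had the steadiest level (Piwil1) and the most divided levels (Mael, Tdrd1) of the list. They are the 250 bases before a RefSeq transcript start on GRCm38.p6, in the direction of the gene, with the core of the MYB site (AACTG, or CAGTT on the other strand) in capitals. The Mael stretch lies at chr1:166238745-166238994 on the minus strand, the Piwil1 stretch at chr5:128735996-128736245 on the plus strand and the Tdrd1 stretch at chr19:56826025-56826274 on the plus strand.
Mael: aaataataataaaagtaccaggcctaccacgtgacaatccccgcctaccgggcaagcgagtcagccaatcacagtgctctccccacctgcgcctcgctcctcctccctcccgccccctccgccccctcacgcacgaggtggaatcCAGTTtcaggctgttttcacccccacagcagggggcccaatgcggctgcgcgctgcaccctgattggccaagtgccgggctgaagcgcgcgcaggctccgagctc
Piwil1: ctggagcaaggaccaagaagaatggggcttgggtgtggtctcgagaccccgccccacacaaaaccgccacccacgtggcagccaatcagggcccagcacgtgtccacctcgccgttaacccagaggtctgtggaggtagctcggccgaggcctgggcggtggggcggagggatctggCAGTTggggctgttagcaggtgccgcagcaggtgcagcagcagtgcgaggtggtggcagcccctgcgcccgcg
Tdrd1: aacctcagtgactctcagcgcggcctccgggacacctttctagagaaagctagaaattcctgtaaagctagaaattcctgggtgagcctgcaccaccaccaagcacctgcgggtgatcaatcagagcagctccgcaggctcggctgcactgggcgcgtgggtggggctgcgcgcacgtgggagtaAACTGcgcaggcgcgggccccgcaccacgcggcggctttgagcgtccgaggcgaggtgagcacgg
The RefSeq promoter table held 11 entries for 8 of the 10 members, with no entry for Piwil2 and Tdrd6. The core was found on either strand in at least 1 entry of 4 members, Mael, Piwil1, Tdrd1 and Tdrkh. It was found in 39.1% of all 32851 entries of that length, a share counted per entry and not per gene. Tdrd1 had 3 entries, of which 1 lacked the core. That entry, at chr19:56825959-56826208, ends just before the annotated start of the gene and is not the one shown. A match of 5 letters is a description of the sequence and not a binding site.

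Among the PIWI proteins, Piwil1 (MIWI), which carries pachytene piRNAs in spermatocytes and round spermatids, had 2808, 2792 and 2654 normalized counts in Prm2+/+, 2966, 3075 and 2805 in Prm2+/- and 3034, 2850 and 2838 in Prm2-/- (replicates 1, 2 and 3). The Prm2-/- libraries all lay above the Prm2+/+ libraries, by a narrow margin. The LFC was 0.08 between Prm2-/- and Prm2+/+ (95% interval -0.06 to 0.22, adjusted p = 0.756, limma), 0.10 between Prm2+/- and Prm2+/+ and -0.02 between Prm2-/- and Prm2+/-. Its highest library exceeded the lowest by 1.16-fold, the narrowest range of the 10 genes.

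Piwil2 (MILI), the PIWI protein of spermatogonia and spermatocytes, had 383, 375 and 368 normalized counts in Prm2+/+, 364, 390 and 385 in Prm2+/- and 391, 347 and 326 in Prm2-/-. All 3 groups overlapped. The variance over the 9 libraries was 1.27 times that of counting alone, so that little spread beyond counting was measured. The LFC was -0.08 between Prm2-/- and Prm2+/+ (95% interval -0.30 to 0.13, adjusted p = 0.809, limma), 0.02 between Prm2+/- and Prm2+/+ and -0.10 between the mutant genotypes. Piwil1 overlaps a gene on the opposite strand and Piwil2 overlaps a pair of small genes on its own strand, and the strand setting of the counting is not given in the sources used here.

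Of the RNA helicases, Ddx4 (mouse vasa homologue), a germ cell marker found in all germ granules, had 1267, 1288 and 994 normalized counts in Prm2+/+, 1164, 1266 and 1197 in Prm2+/- and 1100.3, 1119 and 1025 in Prm2-/-. All Prm2-/- libraries lay below all Prm2+/- libraries, while replicate 3 of Prm2+/+ was the lowest of the 9. The LFC was -0.12 between Prm2-/- and Prm2+/+ (95% interval -0.37 to 0.13, adjusted p = 0.781, limma), 0.04 between Prm2+/- and Prm2+/+ and -0.16 between Prm2-/- and Prm2+/- (95% interval -0.41 to 0.09). Without replicate 3 of Prm2+/+ the first of these was -0.24 (95% interval -0.40 to -0.09, adjusted p = 0.419, limma).

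Mov10l1, the helicase that binds piRNA precursors and feeds them into processing, had 138, 11.8 and 46.4 normalized counts in Prm2+/+, 151, 148 and 120.2 in Prm2+/- and 196, 146 and 121 in Prm2-/-. Replicates 2 and 3 of Prm2+/+ lay below all other libraries, and replicate 1 lay among them. The LFC was 1.80 between Prm2-/- and Prm2+/+ (95% interval 0.12 to 3.48, unadjusted p = 0.0391, adjusted p = 0.651, limma) and 1.68 between Prm2+/- and Prm2+/+ (95% interval -0.01 to 3.36). Between Prm2-/- and Prm2+/- it was 0.12 (95% interval -1.56 to 1.80). The estimate against Prm2+/+ rested on which wild-type libraries entered, being 2.63 without replicate 1, 0.91 without replicate 2 and 1.86 without replicate 3, with none called. The lowest library held 11 recovered counts, so that its level is known only roughly.

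Of the proteins of the mitochondrial surface, Pld6 (MitoPLD, or Zucchini), an endonuclease needed to form the ends of piRNAs, had 353, 342 and 360.2 normalized counts in Prm2+/+, 346, 373 and 380.0 in Prm2+/- and 313, 317 and 293 in Prm2-/-. All 3 Prm2-/- libraries lay below all 6 other libraries. The LFC was -0.19 between Prm2-/- and Prm2+/+ (95% interval -0.39 to -0.001, unadjusted p = 0.0490, adjusted p = 0.677, limma) and -0.25 between Prm2-/- and Prm2+/- (95% interval -0.44 to -0.06, unadjusted p = 0.0167, adjusted p = 0.870, limma). Between Prm2+/- and Prm2+/+ it was 0.06 (95% interval -0.13 to 0.25). The estimates stayed between -0.21 and -0.16 in the first comparison and between -0.29 and -0.22 in the second under all alternatives that were run, and all of them lay short of the required 0.5.

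Asz1 (GASZ), a scaffold of the outer mitochondrial membrane, had 66.5, 54.7 and 15.5 normalized counts in Prm2+/+, 60.3, 64.9 and 76.0 in Prm2+/- and 47.1, 63.9 and 67.6 in Prm2-/-. Replicate 3 of Prm2+/+ lay more than 2-fold below all others, and the other 8 libraries overlapped across genotypes. The LFC was 0.60 between Prm2-/- and Prm2+/+ (95% interval -0.52 to 1.71, adjusted p = 0.761, limma) and 0.78 between Prm2+/- and Prm2+/+. Without replicate 3 of Prm2+/+ these were -0.04 and 0.14. Between Prm2-/- and Prm2+/- the LFC was -0.18 (95% interval -1.29 to 0.94).

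Tdrkh, a Tudor-domain protein that holds PIWI proteins at mitochondria while piRNA ends are trimmed, had 80.8, 65.4 and 34.3 normalized counts in Prm2+/+, 78.1, 83.1 and 90.1 in Prm2+/- and 97.8, 49.7 and 82.4 in Prm2-/-. The lowest libraries were replicate 3 of Prm2+/+ and replicate 2 of Prm2-/-, and all groups overlapped. The LFC was 0.38 between Prm2-/- and Prm2+/+ (95% interval -0.43 to 1.18, adjusted p = 0.784, limma), 0.55 between Prm2+/- and Prm2+/+ and -0.18 between the mutant genotypes. Without replicate 3 of Prm2+/+ the first 2 values were 0.02 and 0.20. Tdrkh overlaps Oaz3, an abundant spermatid gene on the opposite strand with 4188 to 9274 normalized counts, so that its value is uncertain where the counting ignored strand.

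Of the other Tudor-domain scaffolds, Tdrd6, which shapes the chromatoid body of spermatids, had 1407, 1230 and 1689 normalized counts in Prm2+/+, 1206, 1265 and 1346 in Prm2+/- and 1233, 628 and 1279 in Prm2-/-. Replicate 2 of Prm2-/- lay well below the rest and replicate 3 of Prm2+/+ above it. The LFC was -0.52 between Prm2-/- and Prm2+/+ (95% interval -1.13 to 0.09, adjusted p = 0.719, limma), -0.17 between Prm2+/- and Prm2+/+ and -0.35 between Prm2-/- and Prm2+/-. Without replicate 2 of Prm2-/- the first was -0.19 and the last -0.02.

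Tdrd1, a scaffold of the intermitochondrial cement that binds MILI, had 59.9, 510.1 and 35.4 normalized counts in Prm2+/+, 41.5, 71.2 and 53.0 in Prm2+/- and 58.9, 51.8 and 52.8 in Prm2-/-. Replicate 2 of Prm2+/+ lay far above the other 8 libraries, which overlapped in all genotypes and averaged 53.1 ± 11.1 (SD, n = 8). The LFC was -0.91 between Prm2-/- and Prm2+/+ (95% interval -2.87 to 1.05, adjusted p = 0.784, limma), -0.92 between Prm2+/- and Prm2+/+ and 0.01 between the mutant genotypes. Without replicate 2 of Prm2+/+ the first 2 values were 0.24 and 0.22, with the sign turned. Of the genes within 10 kb, Ccdc186 had 422 normalized counts in replicate 2 of Prm2+/+, inside its range of 330 to 497 over the 9 libraries. Vwa2 had its highest value, 6.43, in replicate 2 of Prm2+/+, beside 6.34 in replicate 1 of Prm2-/-. These counts of Vwa2 are too low to tell whether it shared the high level. Mov10l1 had its lowest value in the same library in which Tdrd1 had its highest.

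**Figure D1:**
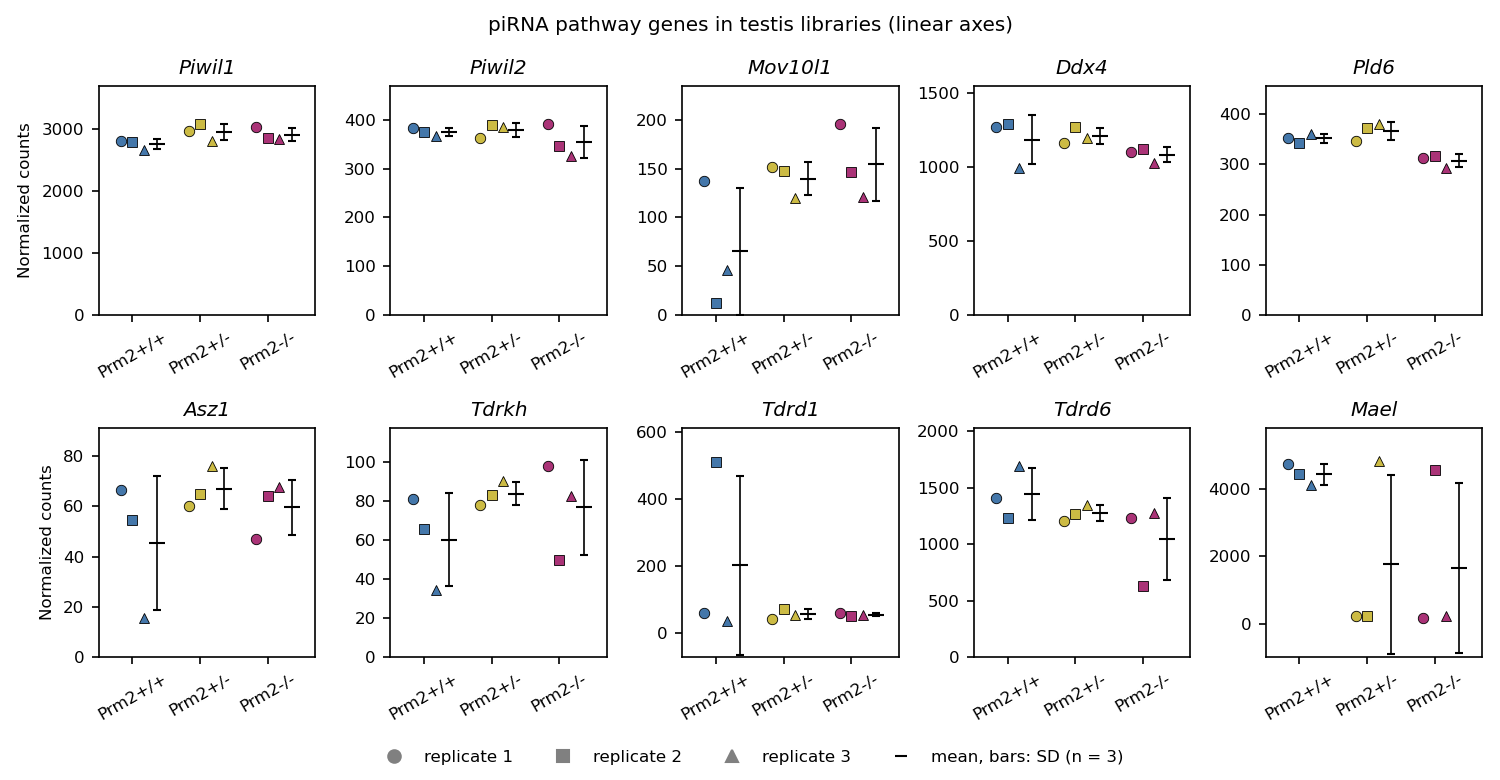
Normalized counts of the 10 piRNA pathway genes (linear axes) in the 3 libraries of each genotype, with replicate numbers as symbols and the mean and SD (n = 3) as black bars. Piwil1, Piwil2, Ddx4 and Pld6 sat close together in all libraries, Tdrd1 was high in replicate 2 of Prm2+/+, and Mael lay at 168 to 230 in 4 libraries and at 4130 to 4851 in the other 5.

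Mael (maelstrom), a germ granule protein needed for transposon silencing and for pachytene piRNA production, showed the widest division of the list. It had 4761, 4454 and 4130 normalized counts in Prm2+/+, 226, 230.2 and 4851 in Prm2+/- and 168, 4583 and 219.6 in Prm2-/-. The high level was shared by all Prm2+/+ libraries, replicate 3 of Prm2+/- and replicate 2 of Prm2-/-, with a mean of 4556 ± 283 (SD, n = 5). The low level was shared by replicates 1 and 2 of Prm2+/- and replicates 1 and 3 of Prm2-/-, with a mean of 211 ± 28.8 (SD, n = 4). No library lay between them, and each mutant genotype held both levels. The LFC was -3.00 between Prm2-/- and Prm2+/+ (95% interval -6.47 to 0.47, unadjusted p = 0.0813, adjusted p = 0.717, limma). It was -2.81 between Prm2+/- and Prm2+/+ (95% interval -6.28 to 0.66, adjusted p = 0.842, limma) and -0.19 between the mutant genotypes (95% interval -3.66 to 3.28). The lowest library held 186 recovered counts of Mael, and the part of depth in the division of Mael was not tested.

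The gap between the neighbouring values of Mael was 4.16 on the log2 scale. A gap of at least 2 was found in 2 of the 10 members (Mael and Tdrd1) and in 2036 of the 14893 tested genes, or 13.7%. Of those 2036 genes, 979 had at least 2 libraries on each side of the gap, and in 28 of them the gap set 1 genotype apart from the others. No other gene (0) was divided into the same 4 and 5 libraries as Mael. No other gene of the table lay within 10 kb of Mael, which spans 166201201 to 166238747 on chromosome 1 of GRCm38 on the minus strand. The counts were assembled from transcript models by the authors, and the part of that step in the division was not tested.

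**Figure D2:**
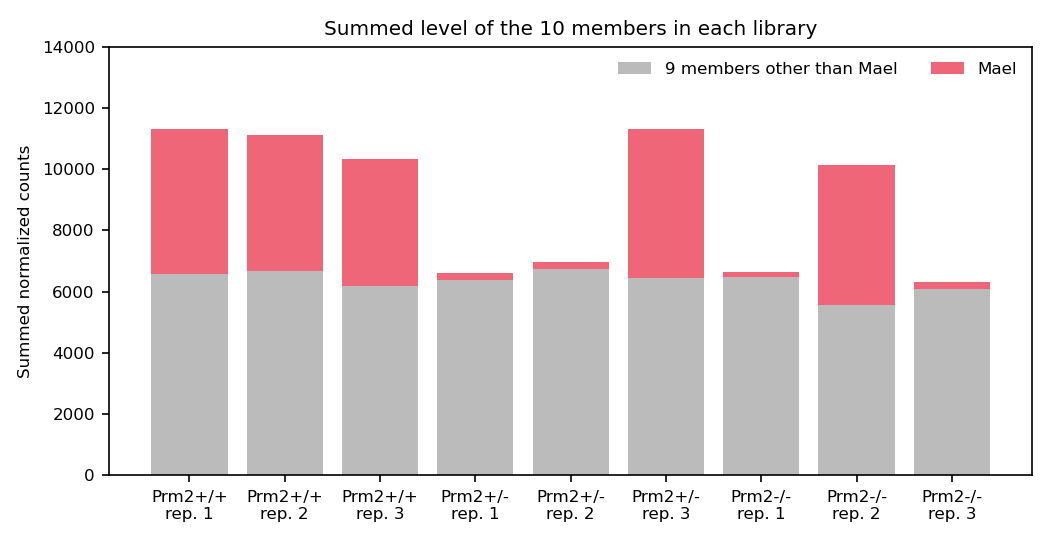
Summed normalized counts of the 10 genes in each library, stacked as Mael and the other 9 members. The sums reached 6305 to 11323, and without Mael 5573 to 6736.

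Mael set the summed level of the list. All 10 genes together reached 6305 to 11323 normalized counts, a 1.80-fold range over the libraries, and without Mael 5573 to 6736, a 1.21-fold range. The members did not rise and fall as a group. Over the 9 libraries the Pearson correlations of the 45 pairs had a median of 0.09 and ran from -0.78 (Mov10l1 with Tdrd1) to 0.76 (Asz1 with Tdrkh), with 26 pairs above 0. Replicate 2 of Prm2+/+ held the extreme values of both genes of the first pair and replicate 3 of Prm2+/+ the lowest values of both genes of the last, and the points share their libraries. The 5 tested genes outside the pathway lists whose profile was most like the mean standardised profile of the members were Arhgap11a (Pearson r = 0.97), Nhlrc2 (0.96), Tmem18 (0.95), Gm19272 (0.95) and Gna13 (0.95), each over the 9 libraries. Each of them except Nhlrc2 had its lowest value in replicate 3 of Prm2+/+. These r values are the highest picked from all tested genes outside the lists, over only 9 libraries. The mean profile also joins members that did not move together, so the 5 genes are a description and not partners of the pathway.

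Counted over the comparisons, 0 of the 10 members were called between Prm2-/- and Prm2+/+ at an adjusted p under 0.05 and an LFC beyond 0.5 in limma, where 0.181% of all tested genes were called. Between Prm2+/- and Prm2+/+ the count was 0 of 10 beside 0.0806% of all genes, and between Prm2-/- and Prm2+/- 0 of 10 beside 0.175%. At an unadjusted p under 0.05 the counts in limma were 2 (Mov10l1 and Pld6), 0 and 1 (Pld6) of the 10, beside 7.33%, 4.24% and 5.44% of all tested genes. With edgeR they were 0, 0 and 1, and with DESeq2 on all 9 libraries 1, 1 and 1, again with 0 called. DESeq2 gave no p for Mael in any comparison.

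The groups did not overlap for 2 members between Prm2-/- and Prm2+/+ (Piwil1 higher, Pld6 lower), beside 14.0% of all tested genes. They did not overlap for 0 members between Prm2+/- and Prm2+/+, beside 9.44%, and for 2 members between Prm2-/- and Prm2+/- (Ddx4 and Pld6, both lower), beside 14.7%. The median LFC of the members was -0.10, 0.05 and -0.17 in these comparisons, and that of all tested genes was 0.02, 0.01 and -0.01. The comparisons share libraries, the Prm2+/+ group in the first pair and each mutant group in the third.

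**Figure D3:**
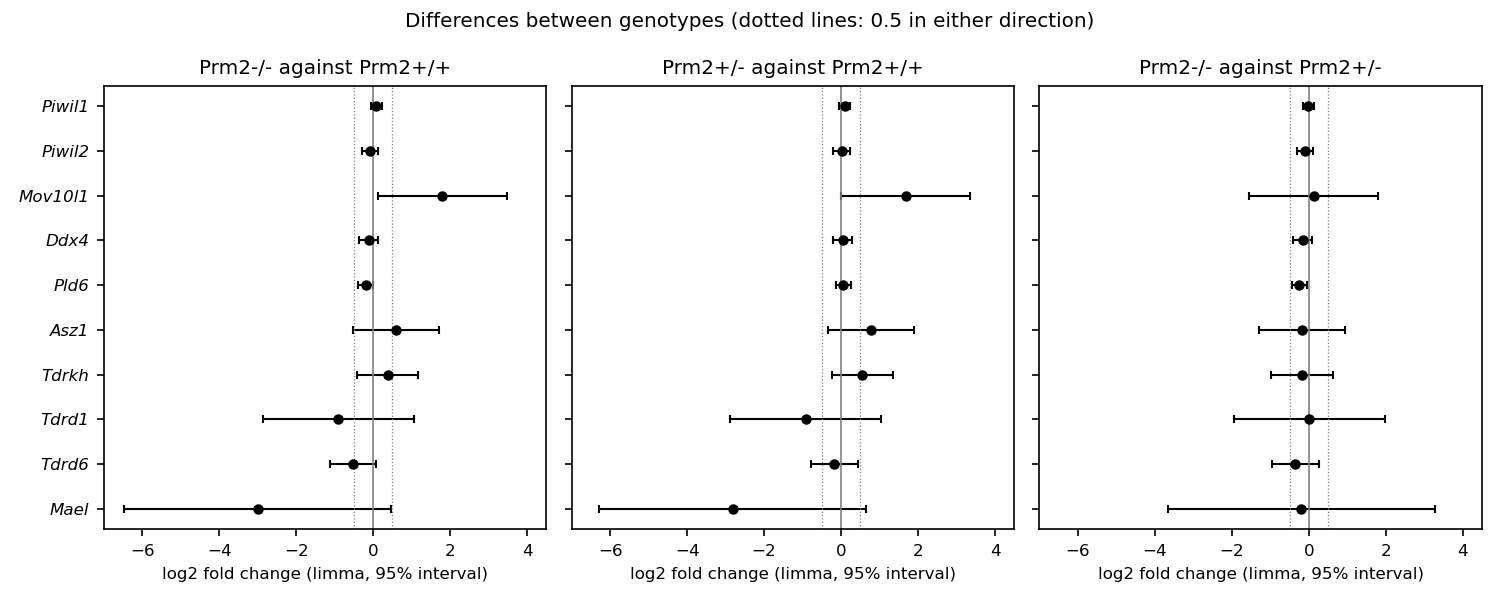
LFC from limma with 95% intervals (horizontal axis, log2 scale) for the 10 genes in 3 comparisons, with dotted lines at 0.5 in either direction. The intervals of Piwil1, Piwil2, Ddx4 and Pld6 lie between the dotted lines in each comparison, while that of Mael runs from -6.47 to 0.47 between Prm2-/- and Prm2+/+.

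A list of 30 other pathway genes gave the same count of calls. Of these, 29 had an entry and 26 were tested. In limma 0 were called in each of the 3 comparisons, beside 0.181%, 0.0806% and 0.175% of all tested genes. At an unadjusted p under 0.05 the counts were 1 (Mov10), 1 (Elavl1) and 3 (Mov10, Kif17 and Fkbp6) of the 26, beside the same 7.33%, 4.24% and 5.44% of all tested genes. Groups did not overlap for 3 genes (Mybl1, Mov10 and Elavl1) between Prm2-/- and Prm2+/+, for 3 (Mov10, Kif17 and Elavl1) between Prm2+/- and Prm2+/+ and for 4 (Rnf17, Tdrd12, Mov10 and Kif17) between Prm2-/- and Prm2+/-. The shares over all tested genes were 14.0%, 9.44% and 14.7%. The median LFC of the 26 genes was -0.03, -0.08 and 0.03. Of the genes with an entry that were not tested, Piwil4, the third mouse PIWI gene, had at most 4.57 normalized counts, the trimming enzyme Pnldc1 had 5.43 and 8.45 in replicates 1 and 3 of Prm2-/- and 0 elsewhere, and Adad2 had 72.4 in replicate 1 of Prm2-/- and 0 elsewhere.

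Mybl1 (A-MYB), the transcription factor of the pachytene piRNA programme, had 222, 237 and 192 normalized counts in Prm2+/+, 227, 221 and 167 in Prm2+/- and 173, 184 and 183 in Prm2-/-. The Prm2-/- libraries lay below the Prm2+/+ libraries and inside the range of Prm2+/-. The LFC between Prm2-/- and Prm2+/+ was -0.27 (95% interval -0.60 to 0.07, adjusted p = 0.721, limma). Mov10, a paralogue of Mov10l1, had 26.6, 23.6 and 24.3 normalized counts in Prm2+/+, 17.8, 21.0 and 21.2 in Prm2+/- and 30.8, 34.5 and 50.7 in Prm2-/-. Its 3 groups were fully separate, with Prm2-/- highest and Prm2+/- lowest. The LFC was 0.89 between Prm2-/- and Prm2+/- (95% interval 0.40 to 1.38, unadjusted p = 0.00321, adjusted p = 0.582, limma) and 0.59 between Prm2-/- and Prm2+/+ (adjusted p = 0.617, limma).

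The largest difference of this list in each comparison belonged to Spocd1 or Morc1, whose levels were divided by a gap of at least 2 on the log2 scale. Elavl1 and Mov10 were also among the 3 largest in at least 1 comparison. Their largest gaps were 0.81 and 0.54. Spocd1, which links nuclear piRNAs to DNA methylation in fetal germ cells, was at 0 in replicates 1 and 2 of Prm2+/+, had 30.9 normalized counts in replicate 3 and 14.5 to 29.2 in the mutant libraries. Its LFC was 2.59 between Prm2-/- and Prm2+/+ and 2.80 between Prm2+/- and Prm2+/+ (adjusted p = 0.712 and 0.842, limma). Without replicate 3 of Prm2+/+ it passed the threshold in both comparisons, with adjusted p = 0.00760 and 0.00681 (limma). Over all 3 Prm2+/+ libraries its mean was 10.3 ± 17.9, beside 18.7 ± 5.83 in Prm2-/- and 21.7 ± 6.55 in Prm2+/- (SD, n = 3 each), and replicate 3 of Prm2+/+ lay above all 6 mutant libraries.

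Morc1, a silencing factor of fetal male germ cells, was at 0 in replicate 3 of Prm2+/+ and replicates 1 and 2 of Prm2+/- and had 14.5 to 23.6 normalized counts elsewhere. Its LFC was 1.08, -1.66 and 2.74 in the 3 comparisons, with adjusted p = 0.852, 0.842 and 0.963 (limma). Elavl1, a general RNA-binding protein, had 83.6, 83.6 and 88.4 normalized counts in Prm2+/+, 12.9, 28.3 and 40.6 in Prm2+/- and 81.5, 72.0 and 21.1 in Prm2-/-. The Prm2+/+ libraries lay above all others, and replicate 3 of Prm2-/- lay within the range of Prm2+/-. The LFC of Elavl1 was -1.75 between Prm2+/- and Prm2+/+ (95% interval -3.03 to -0.47, unadjusted p = 0.0137, adjusted p = 0.842, limma), -0.75 between Prm2-/- and Prm2+/+ and 0.99 between the mutant genotypes. Stk31, a Tudor-domain kinase, had 47.5 normalized counts in replicate 3 of Prm2+/+ and 224 to 293 elsewhere. Its neighbour Fam221a, within 10 kb, also had its lowest value in that library with 17.7 normalized counts, followed by 35.2 in replicate 1 of Prm2+/+ and 88.7 to 127 elsewhere. The pair of noncoding genes within 10 kb of Spocd1 stayed at or below 9.50 normalized counts.

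**Figure D4:**
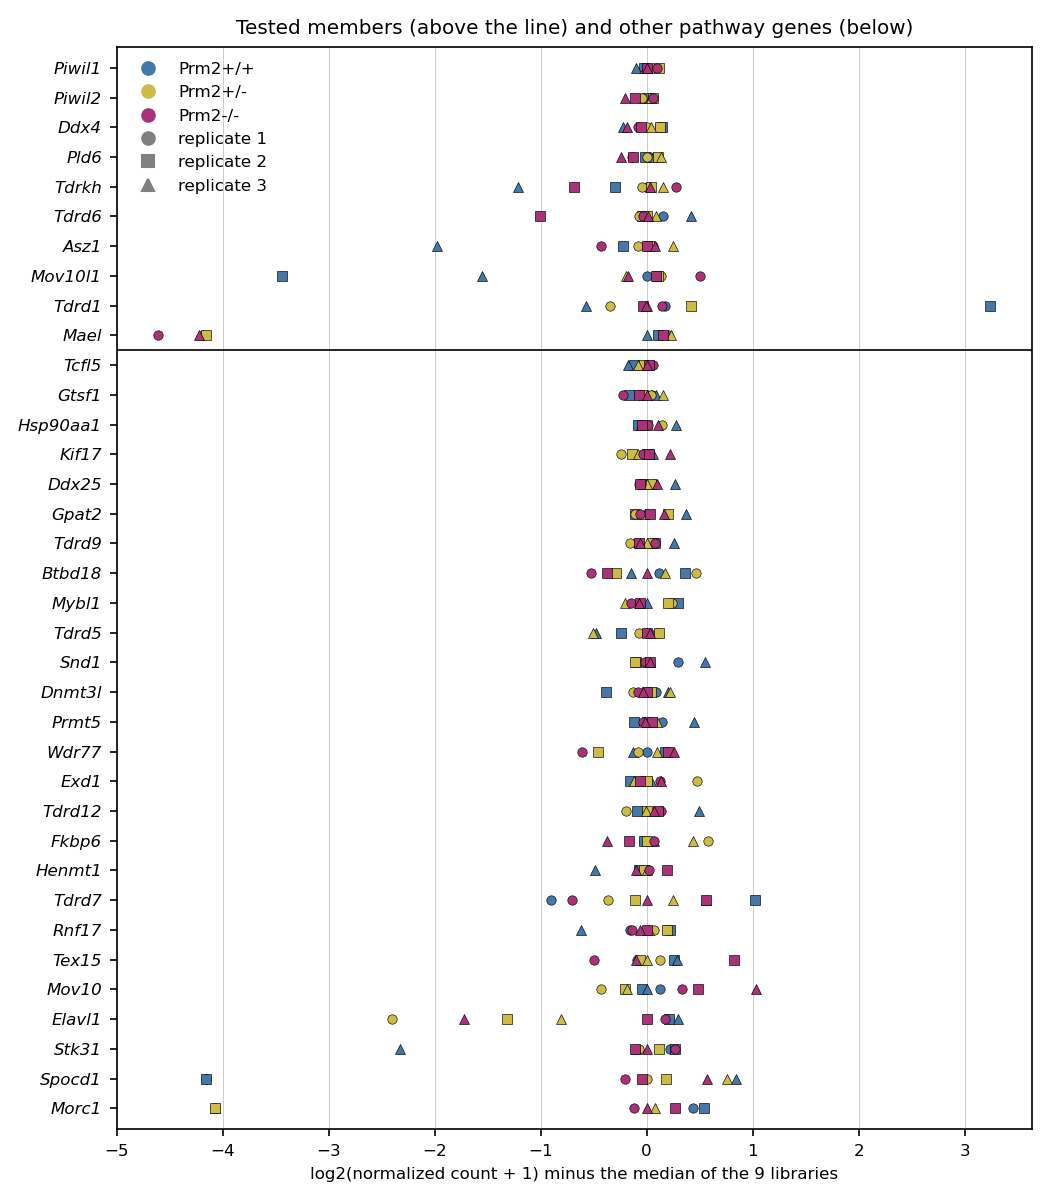
Log2 of the normalized count plus 1, minus the median of the 9 libraries (horizontal axis), for the 10 members above the line and the 26 tested other pathway genes below it, ordered by the largest gap between neighbouring values. Colours stand for genotype and symbols for replicate number. Most genes lay within 1 unit of their median, and single libraries or groups of libraries stood apart for Mael, Tdrd1, Mov10l1 and Asz1 above the line and for Elavl1, Stk31, Spocd1 and Morc1 below it.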

How the data were processed

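Testis libraries of 3 genotypes (3 of each) were grouped by their sample labels. Reads were trimmed with Trim Galore 0.4.5, mapped to GRCm38 with HISAT2 2.1 and quantified with StringTie 1.3.3 by the authors, who removed pseudogenes and prepared gene-level counts, as the paper and the submitters' processing notes state. The authors deposited normalized counts, a signal obtained as the count over the size factor of the library. Whole counts were recovered in each library (100% of values, to within 0.001 of a count, and proportionally more for large counts). For replicate 1 of Prm2+/- the size factor lies so near 1 that this is a weak sign. The table holds 38685 genes and loci, of which 38520 (99.6%) were matched to GENCODE release M21 (GRCm38), and 0 columns lacked a sample. The paper speaks of biological replicates. The labels do not tie libraries to animals, so the p-values measure the spread between these libraries.

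Genotypes were compared with limma 3.58.1 (trend) in R 4.3.3 on log2 of the normalized count plus 1. All 9 libraries and the 14893 genes kept by filterByExpr entered the fit, with genotype as the only term. Genes were called at an adjusted p (Benjamini-Hochberg) under 0.05 with an LFC of more than 0.5 in either direction. Fold changes on this scale understate those of low genes, and counts cover counting error only. Alternatives were edgeR 4.0.16 and DESeq2 1.42.0 on recovered counts, TMM factors, pseudocounts of 0.5 and 5, filters on low counts, the 6 libraries compared, a replicate block, and each library left out in turn. The fits were tested on simulated counts. Python 3.11.15 with numpy 2.4.6, pandas 2.3.3 and matplotlib 3.10.9 made the tables and plots.

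Every member and Prm2 are named. Of the other pathway genes, those called and the 3 with the largest LFC in each comparison are named. So are the neighbours within 10 kb of tested genes with a largest gap of at least 2 on the log2 scale. The 5 genes most like the members are also named. Pnldc1 and Adad2 had such a gap but were not tested, and their neighbours are left out. Other pathway genes, such as Mybl1, Rnf17, Tdrd12, Kif17 and Fkbp6, were named after their values were seen. The members and lists were chosen with earlier results of these data known. Protein sequences are not shown here.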

Additional observations from a re-analysis of the deposited data

How the results depend on the processing

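The 30 LFCs of the members were recomputed under 20 alternatives, which gave 600 values. None (0) passed the threshold, and the lowest adjusted p was 0.207 (Mov10l1, Prm2-/- against Prm2+/+, limma without replicate 1 of Prm2+/+). The sign turned in 18 of the values, 14 of them with a library left out. Part of the 600 values could not turn. In limma, leaving out a library of the genotype not compared leaves the LFC of a gene unchanged. The same holds for the filters, the 6 libraries compared and the replicate block, so the 18 are not a share of 600 open checks. Over the libraries left out in turn, the LFC between Prm2-/- and Prm2+/+ ran from -1.67 to 0.24 for Tdrd1 and from -0.035 to 0.98 for Asz1. Between Prm2+/- and Prm2+/+ it ran from -1.68 to 0.22 for Tdrd1, from -0.080 to 0.11 for Ddx4 and from -0.0034 to 0.047 for Piwil2. Between Prm2-/- and Prm2+/- it ran from -1.71 to 1.28 for Mael, from -0.17 to 0.21 for Tdrd1, from -0.38 to 0.10 for Tdrkh, from -0.062 to 0.28 for Mov10l1 and from -0.055 to 0.011 for Piwil1. The other 4 belonged to Tdrd1 between the mutant genotypes, with an LFC of 0.01 in limma against -0.02 with edgeR (-0.021 with the size factors of the table and -0.016 with TMM factors), -0.018 with DESeq2 on 9 libraries and -0.014 on 6. The cause was not tested.

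The count of called members stayed at 0 in each comparison. The count of other pathway genes called ran from 0 to 1 over the libraries left out, between Prm2-/- and Prm2+/+ and between Prm2+/- and Prm2+/+, in both cases through Spocd1 without replicate 3 of Prm2+/+. Over all genes, 27, 12 and 26 were called in limma (23, 9 and 22 higher), while DESeq2 on 9 libraries called 101 higher and 30 lower, 29 higher and 30 lower, and 88 higher and 22 lower in the 3 comparisons. The cause was not tested.

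The replicate numbers showed no sign of pairing the libraries, which does not exclude a pairing that these correlations miss. Deviations from the group means correlated between -0.037 and 0.042 over 9 same-numbered pairs and between -0.038 and 0.046 over 18 others. With the replicate block, 0 members and 0 other pathway genes were called in each comparison, and over all genes 14 were higher and 1 lower, 3 higher and 3 lower, and 12 higher and 2 lower.

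With 3 libraries a group, a difference carried by a few libraries, as in Mael, widens the interval and hinders a call. Low members (Mov10l1, Asz1, Tdrkh) held as few as 11, 14 and 31 recovered counts in a library.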

Other observations

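Mprip, a regulator of myosin phosphatase whose annotated end lies 3036 bases from that of Pld6 on the opposite strand, was named after its values were seen. It had 387, 399.7 and 493 normalized counts in Prm2+/+, 283, 351 and 299.5 in Prm2+/- and 1669, 1678 and 1677 in Prm2-/-. The LFC was 1.98 between Prm2-/- and Prm2+/+ (95% interval 1.70 to 2.26, adjusted p = 0.000434, limma) and 2.43 between Prm2-/- and Prm2+/- (adjusted p = 0.000101, limma). Between Prm2+/- and Prm2+/+ it was -0.45 (adjusted p = 0.842, limma). Pld6 itself lay slightly lower in the Prm2-/- libraries and was not called.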
